A study of Mus musculus with 3 samples.

Results

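The surface antibody panel without integrins held 264 of the 277 antibody features counted beside the RNA in recipient leukocytes of mouse lung grafts. A feature was a member when its type was antibody capture and its name did not begin with ITG, which left out 13 integrin antibodies. Of the 264 members, 9 were isotype controls, antibodies of matched class with no intended target, and 255 were directed at a named protein. Feature names were mostly human gene symbols, among them HLA-A2, HLA-E and KIR3DL1. The sources used here name neither the antibody cocktail nor its clones or their target species. No member was named for Ly6G, Ly6C, F4/80, CD45.1 or CD45.2, markers by which mouse leukocytes are usually gated. No sequence of an antibody barcode was in the files used here, so none is shown.

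Left lungs of B6 donors carrying CD45.2 were transplanted into B6 recipients carrying CD45.1 (syngeneic, strain given as C57BL/6J and labelled WT, with no drug named in either group) after 60 min of cold storage at 4 °C and 45 min at 28 °C. The paper lists its B6 CD45.1 mice as B6.SJL-Ptprca Pepcb/BoyJ, apart from its WT C57BL/6J mice. Grafts were then reperfused for 2 h or 3 d. Each group was 1 library of CD45.1-sorted recipient cells pooled from 2 mice, so the animals within a library cannot be told apart and differences between the libraries have no replicate check. The naive library, whose feature list held genes only, was not used here. All intervals below are exact 95% intervals for counting error only.

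In this method each antibody carries a DNA barcode that is counted in the same droplet as the RNA, so surface protein and transcript are read from the same cell. An antibody that finds no target leaves only a low background, which isotype controls are meant to estimate. CD44 is a hyaluronan receptor that is abundant on neutrophils and rises on antigen-experienced T cells. CD45R, also called B220, is the form of the CD45 phosphatase carried by mouse B cells. Galectin-3, listed in the panel as LGALS3 with the identifier Mac2, is a β-galactoside-binding lectin that is secreted, binds cell surfaces and is abundant in macrophages.

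The 2 h library had 10283 cells after filtering with a median of 878 gene UMIs (unique molecular identifiers, counted molecules) and 55 antibody counts per cell, and the 3 d library had 8324 cells with medians of 5716 and 82. Cells were sorted into B cells (Cd79a), T cells (Cd3e), NK cells (Ncr1), neutrophils (S100a8) and cells with Ly6c2, Ace or C1qa by the presence of exactly 1 of these 7 transcripts at 0.03% or more of the gene UMIs of the cell (1% for S100a8), which placed 5430 and 6106 cells. All check genes kept out of the call were highest in the expected B, T and NK cells, neutrophils and C1qa cells, whereas 5 of 6 and 4 of 6 monocyte genes were highest in the Ly6c2 cells at 2 h and 3 d, and 4 of 6 and 6 of 6 in the Ace cells. These last groups are therefore named by their transcript. A group needed 50 cells to be judged, which left out C1qa cells at 2 h (1 cell) and NK cells at 3 d (45 cells). The libraries shared 23 cell barcodes. Of the cells not placed, 4418 at 2 h and 1608 at 3 d had no marker, and 435 and 610 had several. The S100a8 share lay near its 1% limit in 2141 cells at 2 h and 413 at 3 d. The part of this limit in the neutrophil values was not tested.

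Only 3 of the 255 target-directed members, CD44, CD45R and LGALS3, reached 2-fold above the highest isotype control in any group of cells, and the same 3 did so in both libraries. They held 98.4% of all member counts at 2 h and 96.7% at 3 d. The isotype controls held 1.07% and 2.51%, and the remaining 252 members together held 0.587% and 0.815%. The median of these 252 was 1 count in the whole library at 2 h and 2 counts at 3 d. Each isotype control had more, from 136 counts (Mouse.IgG2b) to 3677 (Rat.IgG1.lambda) at 2 h. A member below the highest control can therefore still lie above most of the panel. Of the 255, 49 had no count in either library and another 123 had 1 to 9 counts over both.

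**Figure D1:**
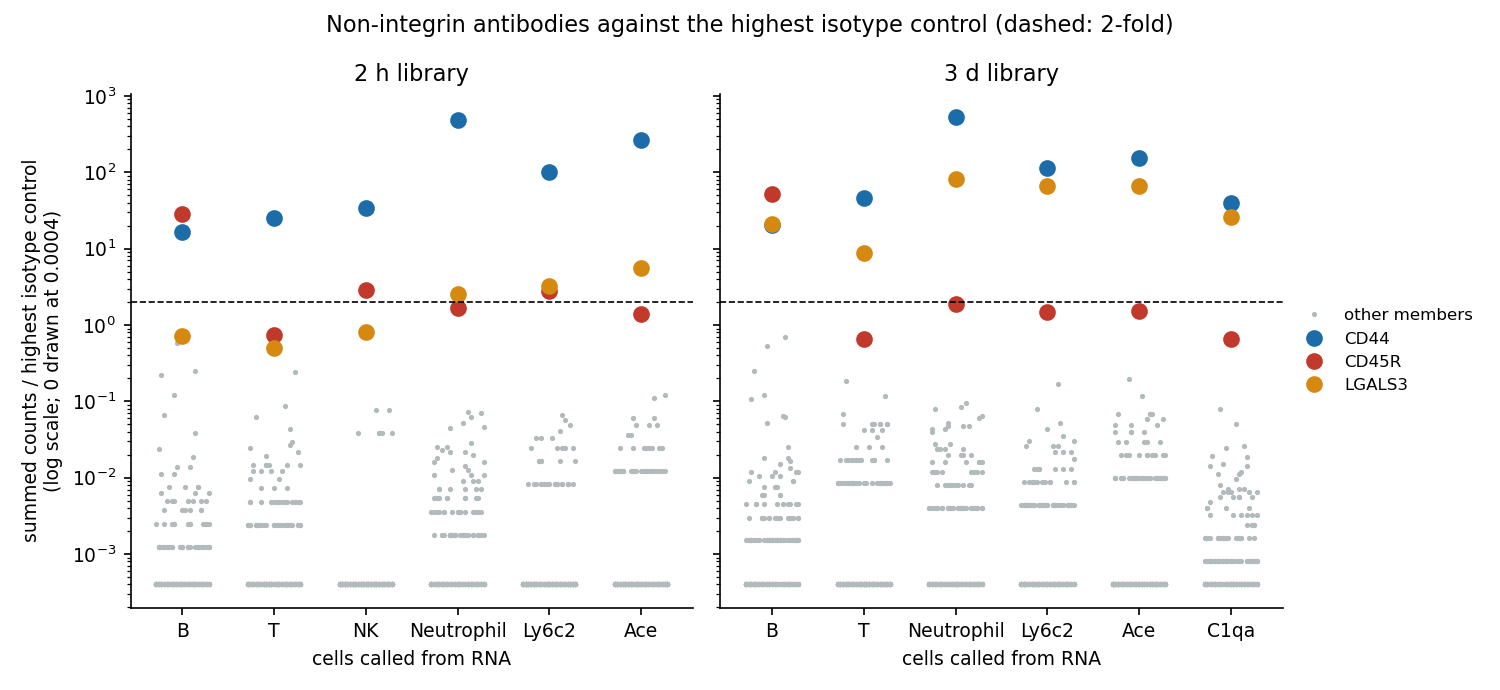
Each point is 1 of the 255 target-directed antibodies, plotted as its summed counts divided by those of the highest isotype control (log axis, 0 drawn at 0.0004) in each group of cells called from RNA. CD44, CD45R and LGALS3 are the only points at or above the dashed 2-fold line, and at 3 d the CD44 and LGALS3 points of B cells coincide at 20.5 and 20.7.

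By group, 2 members were called in 2 h B cells (CD45R and CD44), where 1.49% of the 268 antibodies of the whole panel other than isotype controls were called. In 2 h T cells CD44 alone was called, against 1.12% of the panel. In 2 h NK cells the called members were CD44 and CD45R, and in 2 h neutrophils and Ace cells CD44 and LGALS3, each against 1.49%. All 3 were called in 2 h Ly6c2 cells and in 3 d B cells, against 1.87% in both. In the other 3 d groups (T cells, neutrophils, Ly6c2, Ace and C1qa cells) CD44 and LGALS3 were called, each against 1.49%. The remaining calls of the panel were the integrin antibodies ITGA6 and ITGB7, which passed in every group at both times.

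Just inside the 2-fold limit stood LGALS3 on 2 h neutrophils at 2.52 times the highest isotype control, and just outside it was CD45R on 3 d neutrophils at 1.91 times. Outside CD44, CD45R and LGALS3, the nearest members were C5AR2 on 3 d B cells at 0.694 times, TNFRSF17 on 2 h B cells at 0.586 times, LTBR on 3 d B cells at 0.247 times and ERBB2 on 2 h T cells at 0.243 times the control, all below it. Without 1 B cell TNFRSF17 was at 0.176 times at 2 h, and 57 of the 100 ERBB2 counts on T cells were in 1 cell.

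The isotype controls were low and unequal, with 52.2 to 97.0 counts of all 9 per 100 cells over the groups at 2 h. Rat.IgG1.lambda was the highest in every group judged, and it was level with Rat.IgG1.k on 3 d neutrophils at 251 counts each. Rat.IgG1.lambda gave 69.8 counts per 100 B cells, 38.6 per 100 T cells and 22.0 per 100 neutrophils at 2 h, and 34.3, 23.9 and 13.5 at 3 d. Hamster.IgG moved the other way, with 5.37-fold more counts per B cell and 4.80-fold more per neutrophil at 3 d. Its 95th percentile was 0 in both groups at 3 d, so these counts lay in few cells. The ratio was 2.27 on Ace cells and 0.855 on Ly6c2 cells. Rat.IgG2b, Rat.IgG2a and Mouse.IgG2b were lowest in most groups, for example at 0.470 counts of Mouse.IgG2b per 100 T cells at 2 h.

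C1qa cells at 3 d stood apart from all other groups on every isotype control. The sum of the 9 controls was 826 counts per 100 C1qa cells (801 to 850), against 47.4 per 100 T cells, 54.2 per 100 neutrophils, 68.5 per 100 Ace cells, 77.5 per 100 B cells and 81.0 per 100 Ly6c2 cells in the same library. Each control was 4.39-fold (Mouse.IgG1, 2.99 to 6.61) to 14.7-fold (Rat.IgG2c, 10.5 to 21.3) above the next highest of these groups, and 85.3% of C1qa cells had at least 1 isotype count. C1qa cells had a median of 10658 gene UMIs, more than the 4537 of neutrophils but fewer than the 16144 of Ly6c2 cells. The part of RNA content in the isotype counts was not tested.

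**Figure D2:**
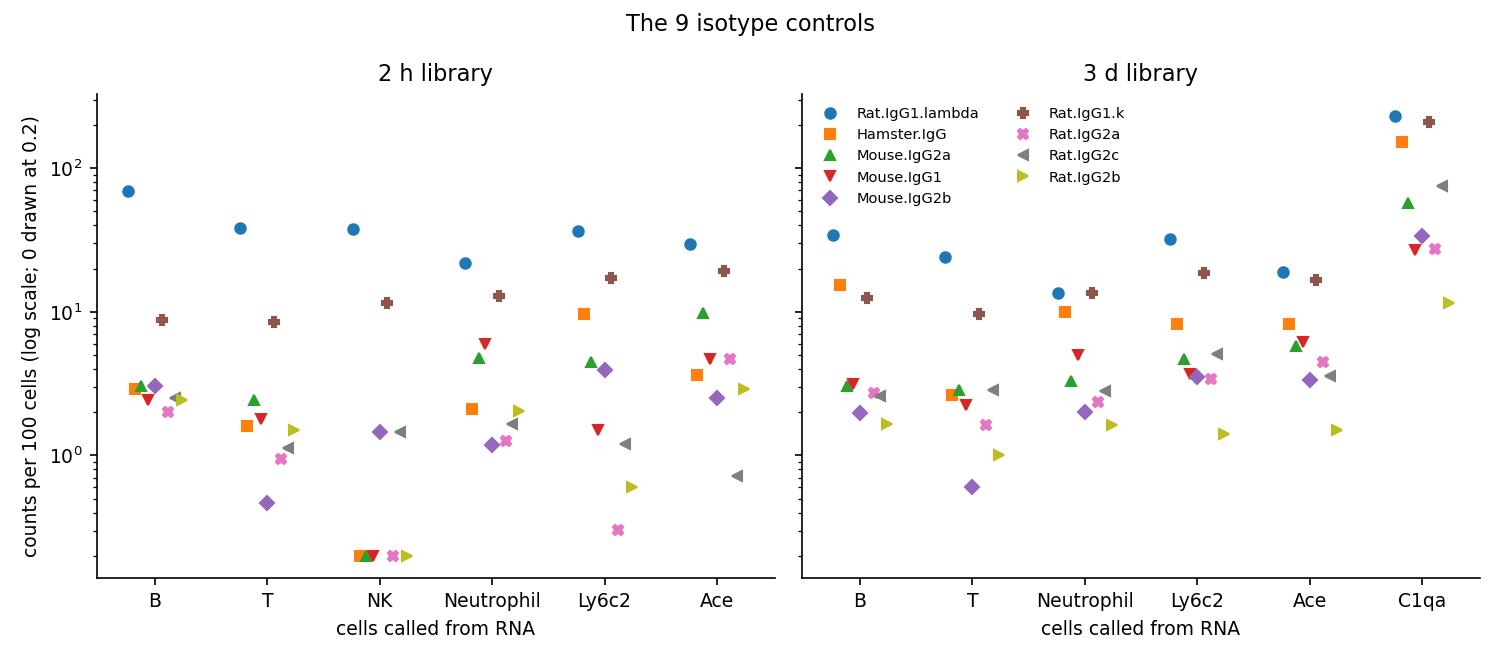
Counts per 100 cells (log axis, 0 drawn at 0.2) of the 9 isotype controls, 1 symbol each, in every group of cells with 50 or more cells. Rat.IgG1.lambda is the top symbol throughout, and all 9 controls are highest in the C1qa cells of the 3 d library.

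Isotype counts and specific counts moved together within the C1qa cells. The 79 C1qa cells with no isotype count had a mean of 61.5 CD44 and 23.4 LGALS3 counts, and the 114 cells with 12 or more isotype counts had 136 and 103. Complement C1q transcripts did not follow the same order, with 4695 counts per 1000000 gene UMIs (CPM) of C1qa, C1qb and C1qc in the first set and 4404 CPM in the second. The values of C1qa cells are therefore given below both per cell and relative to the isotype control.

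CD45R marked B cells at both times. The mean was 19.8 counts per B cell (19.51 to 20.02; 1147 cells) at 2 h and 17.7 (17.5 to 17.9; 1934 cells) at 3 d, and the medians were 18 and 17. These means were 28.3-fold (26.4 to 30.4) and 51.6-fold (47.7 to 55.8) above the highest isotype control, which itself was lower at 3 d. T cells had 0.284 and 0.158 CD45R counts per cell, below the isotype control, and neutrophils had 0.368 and 0.259. At least 10 CD45R counts were found on 83.8% of B cells but 0.751% of T cells at 2 h, and on 83.1% and 0.202% at 3 d.

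NK cells had a small CD45R signal, with 1.09 counts per cell (0.855 to 1.36, 75 counts over 69 cells) at 2 h, 2.89-fold (1.83 to 4.70) above the control. The median was 0, and 2 of the 69 cells had 10 or more counts. With called doublets removed the mean was 0.934 over 61 cells. The 45 NK cells at 3 d gave 45 counts. Cells with at least 2 UMIs of Siglech, a transcript of plasmacytoid dendritic cells, had a median of 5 CD45R counts at 2 h (20 cells) and 3 at 3 d (27 cells), between the levels of T and B cells.

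Cd79a and CD45R pointed to the same cells at 3 d and less completely at 2 h. Of the cells with 10 or more CD45R counts, 98.0% of 1755 carried a Cd79a UMI at 3 d and 65.3% of 1527 at 2 h, where gene UMIs per cell were fewer. The 530 such cells without Cd79a at 2 h carried the 7 B cell check genes at 2900 CPM, against 30.3 CPM in cells with fewer CD45R counts and no Cd79a, and 458 of the 530 had at least 1 UMI of a check gene. The 35 such cells at 3 d carried them at 354 CPM, against 41.0 CPM.

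The CD45R level did not rank the groups as Ptprc, the gene of CD45, did. Ptprc (chromosome 1, 138062861 to 138175708, minus strand, GRCm38) was at 471 CPM (432 to 513) in B cells at 2 h, the lowest of the 6 groups, and at 1760 CPM (1459 to 2105) in NK cells, the highest. At 3 d neutrophils had 2511 CPM of Ptprc and 0.259 CD45R counts per cell, whereas B cells had 875 CPM and 17.7 counts. The other antibodies to CD45 forms stayed near 0, although every cell had been sorted on CD45.1. CD45 had 26 counts in the whole 2 h library and 13 at 3 d, CD45RB 37 and 23, and CD45RA and CD45RO had none.

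CD44 was detected in every group and was highest on neutrophils at 2 h. Neutrophils had 107 CD44 counts per cell (median 85; 487-fold above the isotype control, 448 to 531), Ace cells 79.0 (median 37) and Ly6c2 cells 37.0 (median 14). NK cells had 12.8, B cells 11.4 and T cells 9.84 counts per cell, with medians of 4, 4 and 2. With called doublets removed these means were 5.38, 7.40 and 5.25. At 3 d the order per cell was C1qa cells at 91.2 (median 76), neutrophils at 72.1 (median 60), Ly6c2 cells at 37.3 (median 31), Ace cells at 29.1 (median 21.5), T cells at 10.96 (median 4) and B cells at 7.05 (median 4). Relative to the isotype control the neutrophils were highest at 3 d as well, at 532-fold (470 to 605), and C1qa cells were at 39.3-fold (37.1 to 41.6).

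**Figure D3:**
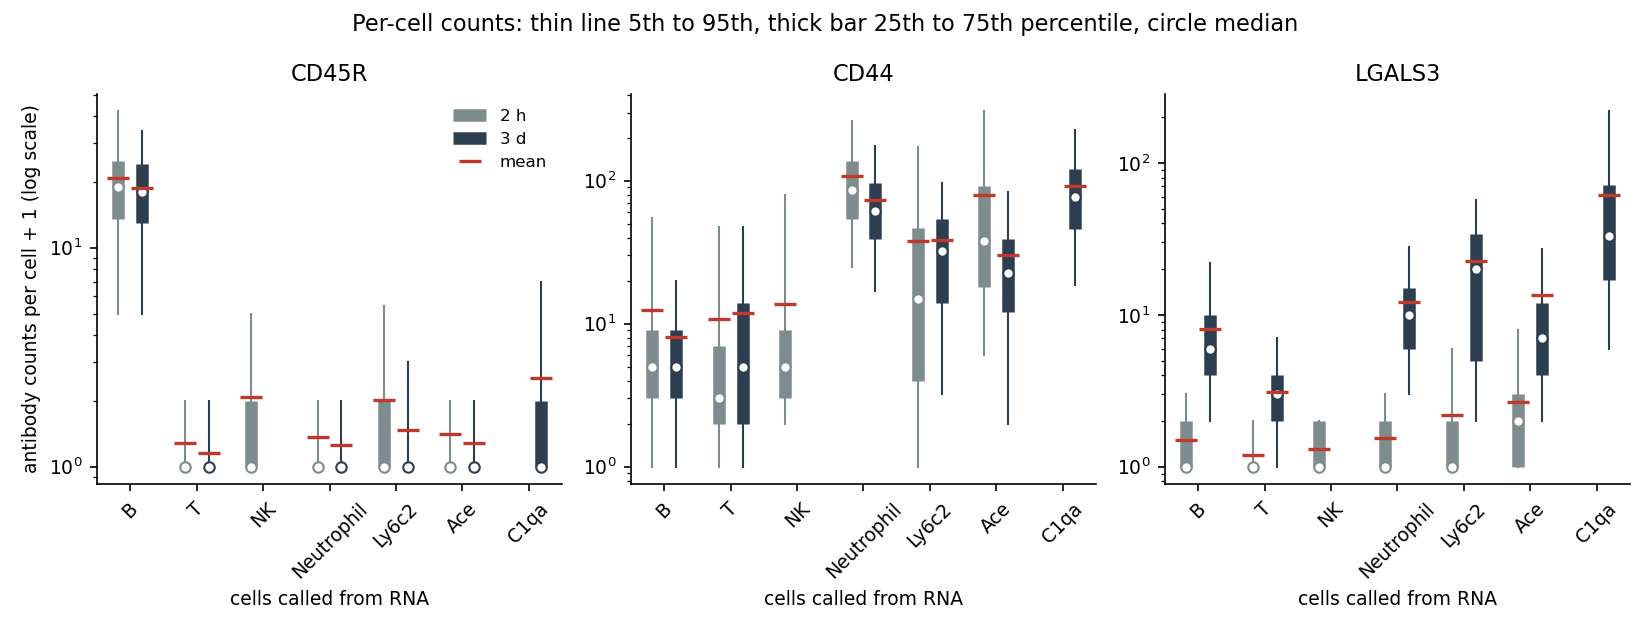
Antibody counts per cell plus 1 (log axis) for CD45R, CD44 and LGALS3 in each group of cells, with 2 h in grey and 3 d in dark blue. Thin lines run from the 5th to the 95th percentile, thick bars from the 25th to the 75th, circles are medians and red ticks are means. CD45R is raised on B cells at both times, and LGALS3 is raised in every group at 3 d. CD44 is highest on neutrophils at 2 h and on C1qa cells, then neutrophils, at 3 d.

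Lymphocyte CD44 was carried by a tail of cells. The 95th percentile was 53.7 counts on B cells and 46.6 on T cells, and at 3 d it was 19 and 46.4. At 2 h, 90 of 1147 B cells reached the 5th percentile of neutrophil CD44 (24 counts). The doublet caller Scrublet marked 56.7% of these 90 cells and 2.55% of the remaining B cells, and the 90 cells carried 6014 CPM of the neutrophil transcript S100a9, against 137 CPM. The 98 such T cells at 2 h were called doublets in 53.1% of cases and had 3944 CPM of S100a9, against 101 CPM.

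The CD44-high T cells at 3 d differed from those at 2 h in this respect. There, 102 of 494 T cells (20.6%, 17.2 to 24.5) reached the corresponding limit of 16 counts and 3.92% of them were called doublets. With called doublets removed, the 98 CD44-high T cells and the CD44-low T cells had similar levels of S100a9 (241 and 234 CPM) and similar depth (medians of 8181 and 7840 gene UMIs). Cd44 itself was 3.66-fold (3.07 to 4.36) higher in the CD44-high cells, at 313 against 85.6 CPM.

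The same 98 T cells differed from CD44-low T cells in transcripts of chemokine receptors. Ccr7, a receptor for entry into lymph nodes, was at 99.6 against 400 CPM, a ratio of 0.249 (0.197 to 0.311). Cxcr6, a receptor of tissue-lodged T cells, was 16.9-fold (12.4 to 23.5) higher, at 269 against 15.9 CPM. Cxcr3, a receptor of effector T cells, was 3.34-fold higher (2.37 to 4.73), and Foxp3, the regulatory T cell factor, was 5.66-fold higher (3.70 to 8.75) on 59 and 38 UMIs. Il7r differed less, at 1081 against 766 CPM. The genes were chosen after CD44 had been examined, and the intervals describe the cells of 1 library.

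The CD44 limit was 24 counts at 2 h and 16 at 3 d, so the shares of CD44-high cells are not on 1 threshold. In T cells at 2 h, with called doublets removed, 46 of 993 cells (4.63%, 3.41 to 6.13) were CD44-high. Ccr7 was at 372 against 805 CPM in them, Cxcr6 was 5.94-fold (2.22 to 14.5), Cxcr3 6.31-fold (2.16 to 16.7) and Foxp3 4.39-fold (1.70 to 10.2) higher on 7 or 8 UMIs each, and S100a9 was still at 1519 against 60.5 CPM. The part of remaining doublets in these values was not tested.

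Cells called by Ly6c2 held more than monocytes, and antibody levels differed among them. At 3 d, 473 of 706 Ly6c2 cells had a UMI of a monocyte gene (Ccr2, F13a1, Chil3, Vcan or Fn1) and none of Gzma, Trbc2 or Siglech, genes of cytotoxic, T and plasmacytoid dendritic cells. These 473 had 46.3 CD44 and 28.4 LGALS3 counts per cell. The 57 cells with the second set alone had 6.93 CD44 and 1.63 LGALS3 counts, with medians of 7566 gene UMIs against 17478. At 2 h the second set was the larger, with 169 of 333 cells and 11.8 CD44 and 0.189 LGALS3 counts per cell. The 85 cells with a monocyte gene alone had 55.8 and 3.93. Another 72 cells had neither set of genes, with 72.9 CD44 and 0.417 LGALS3 counts per cell.

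Cells called by Ace were also mixed. Cdh5 or Cldn5, genes of endothelial junctions, was detected in 14 of 277 Ace cells at 2 h and 54 of 536 at 3 d. These 54 cells had 6.22 CD44 counts (5.58 to 6.92) and 50.9 LGALS3 counts per cell (49.0 to 52.8), whereas the other 482 had 31.7 and 8.13. Their medians for LGALS3 were 15 and 6, so a few cells carried much of the difference in means. The integrin antibody ITGA6 was at 514 counts per cell in the 54 cells and at 8.04 in the rest.

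LGALS3 separated the libraries. At 2 h the mean was 0.496 counts per B cell, 0.193 per T cell, 0.304 per NK cell, 0.554 per neutrophil, 1.19 per Ly6c2 cell and 1.66 per Ace cell, and the median was 0 in all of these but the Ace cells, where it was 1. B, T and NK cells were below the isotype control at 2 h, at 0.710, 0.499 and 0.808 times. At 3 d the mean was 7.12 per B cell (7.001 to 7.239), 2.11 per T cell (1.98 to 2.24), 11.1 per neutrophil (10.9 to 11.3), 21.7 per Ly6c2 cell, 12.4 per Ace cell and 60.4 per C1qa cell (59.7 to 61.0). The 45 NK cells at 3 d had 2.38 (1.95 to 2.87). Medians at 3 d ran from 2 on T cells to 32 on C1qa cells.

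Relative to the highest isotype control of the same cells, LGALS3 at 3 d was 82.0-fold on neutrophils (72.4 to 93.2), 67.1-fold on Ly6c2 cells, 66.0-fold on Ace cells, 26.0-fold on C1qa cells (24.5 to 27.5), 20.7-fold on B cells and 8.81-fold on T cells (7.28 to 10.8). The C1qa cells were thus highest per cell but below the neutrophils, Ly6c2 and Ace cells on the isotype scale. The Ly6c2 and Ace values had overlapping intervals (58.9 to 76.8 and 54.2 to 81.2).

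The rise of LGALS3 from 2 h to 3 d held in all 5 groups with 50 or more cells in both libraries. As a share of all antibody counts of the group it went from 0.955% to 10.1% in B cells, from 0.461% to 2.72% in T cells, from 0.404% to 9.55% in neutrophils, from 1.72% to 15.5% in Ly6c2 cells and from 1.33% to 10.9% in Ace cells. Per cell the increase was 14.4-fold on B cells, 10.9-fold on T cells, 20.04-fold on neutrophils, 18.2-fold on Ly6c2 cells and 7.49-fold on Ace cells. In Ace cells without Cdh5 or Cldn5 it was 6.29-fold (5.63 to 7.05), and in Ly6c2 cells with a monocyte gene alone, which were 25.5% of these cells at 2 h and 67% at 3 d, it was 7.23-fold (6.49 to 8.09). Time after reperfusion and library cannot be told apart.

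Lgals3 RNA (chromosome 14, 47367751 to 47386160, plus strand, GRCm38) was compared with the antibody on matched scales, since gene UMIs per cell were 5.04-fold (Ace cells) to 10.2-fold (Ly6c2 cells) higher at 3 d. As shares, CPM for RNA and share of antibody counts for LGALS3, the antibody difference was the larger in all 5 groups. On the log2 scale, 3 d over 2 h, the values for RNA and antibody were 1.098 (0.61 to 1.63) and 3.40 in B cells, and 1.79 and 4.56 in neutrophils. In T cells the antibody difference was 2.56, and the RNA difference of 0.15 (-0.21 to 0.51) was not detectable at this depth. Ly6c2 cells had 1.51 and 3.17, and Ace cells 0.72 and 3.04.

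Per cell this difference between RNA and antibody was seen in T cells alone, with log2 values of 2.72 (2.37 to 3.08) for Lgals3 UMIs and 3.45 (3.23 to 3.67) for the antibody. B cells had 3.66 (3.17 to 4.19) and 3.84, neutrophils 4.32 and 4.33 and Ace cells 3.05 and 2.91, each pair with overlapping intervals. In Ly6c2 cells the RNA value was the higher, at 4.87 (4.72 to 5.02) against 4.18 (4.04 to 4.33). The part of the depth of the libraries in these values was not tested.

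Between groups, LGALS3 and Lgals3 RNA followed each other in part. At 3 d neutrophils, Ace, Ly6c2 and C1qa cells, with 572 to 2132 CPM, had 11.1 to 60.4 antibody counts per cell, above the 7.12 and 2.11 of B and T cells. By mean, Ly6c2, Ace cells and neutrophils had the same order on both measures. The place of Ace cells above neutrophils did not hold by median, at 6 against 9 antibody counts. It also did not hold for the 482 Ace cells without Cdh5 or Cldn5, at a mean of 8.13 against 11.1. B and T cells had nearly the same RNA level, 67.6 (62.8 to 72.6) and 67.9 CPM (60.0 to 76.6). Ly6c2 cells had the highest RNA, at 2132 CPM, and C1qa cells, with 649 CPM, the highest antibody counts per cell.

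Within groups at 3 d, without called doublets, cells with and without an Lgals3 UMI were compared. B cells with a UMI had 6.94 LGALS3 counts and those without 6.90, and in neutrophils these means were 10.7 and 11.4. Cells with a UMI were higher in T cells (2.66 and 1.76), C1qa cells (62.5 and 41.3) and Ly6c2 cells (25.8 and 2.83), and lower in Ace cells (8.56 and 40.6), the last 2 groups being mixed. Except in T cells, cells with a UMI also had more gene UMIs, for example medians of 17194 and 5536 in Ly6c2 cells.

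**Figure D4:**
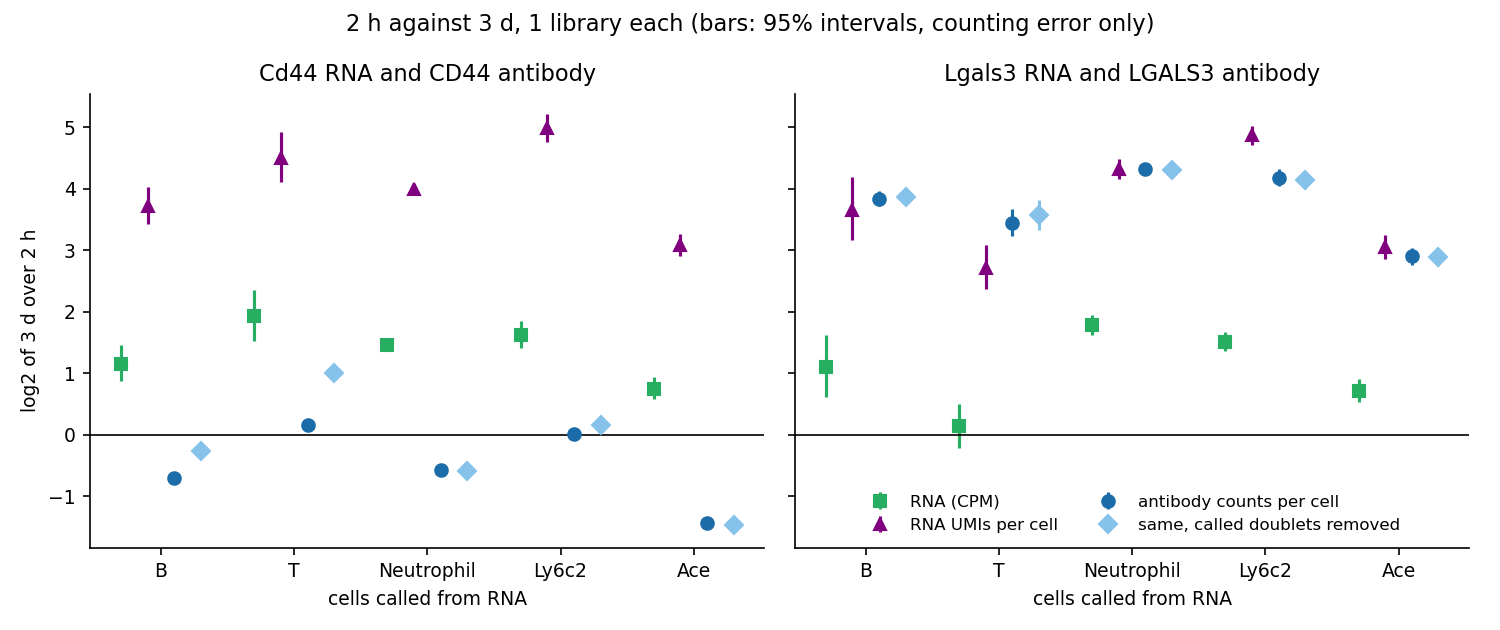
Log2 of 3 d over 2 h for RNA as CPM (green squares) and as UMIs per cell (purple triangles), antibody counts per cell (blue circles) and the same with called doublets removed (light diamonds), with 95% intervals for counting error, in the 5 groups present in both libraries. Cd44 RNA is above 0 in all 5 groups while the CD44 antibody is below 0 in B cells, neutrophils and Ace cells. LGALS3 per cell lies above Lgals3 CPM in all 5 groups but near Lgals3 UMIs per cell in B cells, neutrophils and Ace cells.

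As shares, CD44 antibody was lower and Cd44 RNA higher at 3 d in all 5 groups. Per cell they moved in opposite directions in B cells, neutrophils and Ace cells. In T cells both were higher per cell, with log2 values of 0.16 for the antibody and 4.50 for RNA. Within every group compared, without called doublets, cells with a Cd44 UMI had more CD44 counts than those without. These cells also had more gene UMIs. Cd44 (chromosome 2, 102811141 to 102901665, minus strand, GRCm38) was higher at 3 d in all 5 groups, from 748 to 2067 CPM in neutrophils, from 618 to 1042 CPM in Ace cells, from 351 to 1086 CPM in Ly6c2 cells, from 90.3 to 202 CPM in B cells and from 39.1 to 148 CPM in T cells, and per cell its log2 difference was 3.09 (Ace cells) to 4.99 (Ly6c2 cells). CD44 counts per cell were lower at 3 d on neutrophils, at a ratio of 0.674, and on Ace cells, at 0.369, where the medians were 37 and 21.5. The 6 neutrophil check genes were at 4933 CPM in Ace cells at 2 h and 693 CPM at 3 d, none of them at 0, and their part in the CD44 difference was not tested. In Ace cells, 14 cells of the 2 h library held 26.1% of the CD44 counts, and leaving out the 1% of cells with the most antibody counts in each library gave means of 61.5 and 29.3.

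On Ly6c2 cells the mean CD44 count per cell was nearly equal, at a ratio of 1.01 (log2 of 0.01, -0.02 to 0.04). The median went from 14 to 31, and with called doublets removed the ratio was 1.125 (1.099 to 1.151). The makeup of these cells differed between the libraries, and in those with a monocyte gene alone the ratio was 0.830 (0.804 to 0.856). B cells had a lower mean at 3 d, with a ratio of 0.618, and equal medians of 4. With called doublets removed the B cell ratio was 0.833 (0.810 to 0.858). T cells had a ratio of 1.11, and with called doublets removed the means were 5.25 and 10.5 counts per cell, a ratio of 2.01 (1.93 to 2.09). As a share of all antibody counts CD44 was lower at 3 d in all 5 groups, including T cells (log2 of -0.73), while scaling to the isotype controls gave 0.42 in T cells. The integrin antibodies held 31.0% of all antibody counts at 2 h and 54.4% at 3 d.

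CD45R on B cells was nearly level in counts per cell, at a ratio of 0.896 at 3 d, with a log2 difference of -0.16 (-0.18 to -0.13). As a share of B cell antibody counts it went from 38.1% to 25.1%, and scaled to the isotype controls the difference turned to a log2 of 0.16.

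Counted over all members with 50 or more counts over both libraries, 5 of 10 members changed by 2-fold or more as shares of B cell antibody counts, against 46.2% of the panel. LGALS3 was higher, and CD44, TNFRSF17, THY1 and CD7 were lower. Without 1 B cell at 2 h, TNFRSF17 went from 12.3 to 18.1 counts per 100 B cells and THY1 from 3.23 to 4.19. Neither was then lower per cell at 3 d, while CD7 still was, at 6.46 and 3.67. In T cells 3 of 4 members passed, against 50% of the panel, with LGALS3 higher and CD45R and ERBB2 lower, although CD45R was not lower per cell with called doublets removed (log2 of 0.12, -0.30 to 0.52). In neutrophils 1 of 6 passed, LGALS3, against 12.5%. In Ly6c2 cells 3 of 3 passed against 60%, with LGALS3 higher and CD44 (nearly equal mean per cell, as above) and CD45R lower. In Ace cells 2 of 3 passed against 40%, with LGALS3 higher and CD44 lower. The median log2 difference of these members was -0.68 in B cells, -1.23 in T cells, -0.16 in neutrophils, -1.003 in Ly6c2 cells and -0.42 in Ace cells, against -0.60, -0.29, 0.09, 0.05 and 0.47 over the panel.

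Antibodies to lineage-defining proteins gave almost no counts. The lists for B, T and NK cells, neutrophils, monocytes and macrophages matched 44 members that could be judged in each library, of which 38 had under 10 counts at 2 h and 35 at 3 d, and CD45R was the only one above the isotype control. The 44 held 6 NK cell antibodies at 2 h only and 6 macrophage antibodies at 3 d only. In 5 of 44 at 2 h and 5 of 44 at 3 d the highest share was in the cells the protein defines. Apart from CD45R these rested on 1 to 12 counts in those cells. TCR.gamma.delta and TCR.alpha.beta, spelled otherwise in the lists, were not among the 44. At 2 h TCR.gamma.delta had 10 counts on T cells, 1 on neutrophils and none in the other groups judged, and TCR.alpha.beta had no count. CX3CR1, a receptor of nonclassical monocytes, had 12 of its 30 counts on Ace cells at 3 d. TIMD4, a receptor of resident macrophages, had 9 of its 13 counts on C1qa cells, where all isotype controls were also highest. Of 11 antigen presentation and checkpoint antibodies and 13 adhesion and vascular antibodies none was above the isotype control in either library, and the largest were TIGIT at 50 and 55 counts and ENG at 38 and 95 over the groups judged.

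Transcripts of many of these targets were abundant where the antibody was silent. Of the 255 members, 210 matched a mouse gene by symbol, with the 5 CD45 forms set against Ptprc. The matched gene reached 100 CPM in at least 1 group for 80 members at 2 h and 91 at 3 d, and the antibody was below the isotype level in the group with the most RNA for 77 and 88 of these. In 63 at each time it had no count there. The shares below the isotype level were near that of all members, since 252 of the 255 were below it in every group judged. Over the whole library, 103 of the 252 had no count at 2 h and 61 at 3 d. The examples below were taken after the values were seen. Cd74, the invariant chain, was at 19420 CPM in 2 h B cells and its antibody had no count on 1147 cells, where 3 counts would be 0.262 per 100 cells. Cd14, a lipopolysaccharide coreceptor, was at 2897 CPM in 2 h neutrophils with no count on 2538 cells, where 3 counts would be 0.118 per 100 cells.

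The same held for receptors by which lymphocytes and monocytes are recognized. Cxcr4 was at 2653 CPM in 2 h B cells, Il7r at 898 CPM in 2 h T cells, Cd3d at 577 CPM in 2 h T cells and Ms4a1, the gene of CD20, at 414 CPM in 2 h B cells, each with no antibody count there. Ccr2 was at 932 CPM in 3 d Ly6c2 cells with none on 706 cells. The 45 members without a matched gene had a median of 1 count at 2 h and 3 at 3 d, against 1 and 2 for the matched members, and a maximum of 75 and 106.

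A few members below the isotype control were still unevenly spread over the cells. They were chosen after their values were seen. TNFRSF17, a receptor of plasma cells, had 18.1 counts per 100 B cells at 3 d against 0.339 per 100 cells of the other groups, a ratio of 53.4 (31.4 to 98.6). C5AR2, a complement receptor, had 23.8 against 1.55, a ratio of 15.4 (11.8 to 20.3). Tnfrsf17 RNA was at most 0.45 CPM in any group at 3 d. C5ar2 RNA was highest in neutrophils, at 108 CPM, where its antibody had 12 counts on 1854 cells. Whether the antibody counts reflect the named proteins was not tested. THY1 and CD7, both known from T cells, had 4.19 against 0.121 and 3.67 against 0.436 counts per 100, and none of the THY1 counts at 3 d was on a T cell. All 4 were at 0.107 to 0.694 times the highest isotype control on 3 d B cells.

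At 2 h the same 4 were highest on B cells, but 1 B cell held 328 of the 587 TNFRSF17 counts of the filtered cells. Without it TNFRSF17 was at 12.3 per 100 B cells against 0.420 per 100 others (ratio 29.3, 17.9 to 50.8), CD7 at 6.46 against 0.490 and THY1 at 3.23 against 0.0467. C5AR2 was at 17.5 against 0.841. The lower shares of TNFRSF17, CD7 and THY1 on B cells at 3 d given above include this cell. Without it only CD7 of these was lower per B cell at 3 d. When the 1% of cells with the most antibody counts were left out, 3 members passed 2-fold in B cells.

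Across cells, these 4 antibodies were higher in cells with 5 or more CD45R counts than in cells with none. In the 3 d library TNFRSF17 was at 0.240 counts per 100 cells without CD45R, 1.01 at 1 to 4 CD45R counts, 12.1 at 5 to 9 and 26.8 at 30 or more. C5AR2 was at 1.48, 2.40, 11.7 and 39.4 in the same classes. Between the classes of 5 to 9 and 30 or more, mean CD45R rose from 7.27 to 37.1, while CD7 went from 3.90 (1.95 to 6.98) to 5.56 (2.77 to 9.94). The CD7 intervals overlapped, whereas THY1 went from 1.42 (0.387 to 3.63) to 7.07 (3.87 to 11.9).

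**Figure D5:**
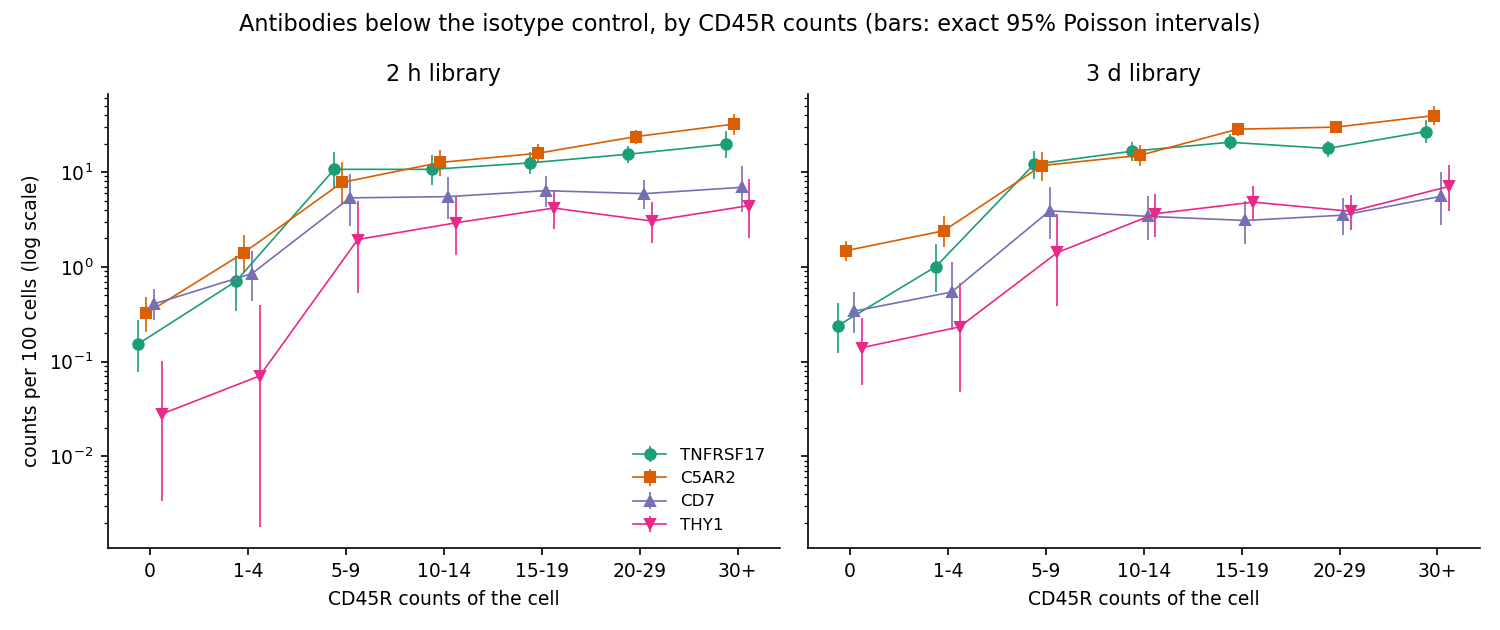
Counts per 100 cells (log axis) of TNFRSF17, C5AR2, CD7 and THY1 in cells grouped by their CD45R counts, with exact 95% Poisson intervals and without the 2 h B cell that held 328 TNFRSF17 counts. All 4 lie lowest in cells with 0 CD45R counts, and from 5 to 9 counts upward CD7 stays nearly level while C5AR2 climbs from 11.7 to 39.4 at 3 d.

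Some members were highest outside B cells, all below the isotype control and also named after their values were seen. ABCG2, a transporter, had 18.6 counts per 100 C1qa cells at 3 d, against 3.73 per 100 Ace cells, and ENG, a TGF-β coreceptor, had 11.7 against 1.13 per 100 neutrophils. CD72 had 5.77 per 100 C1qa cells and 0.0517 per 100 B cells, although CD72 is known as a B cell protein. The isotype controls were also highest in C1qa cells, as given above. NOTCH1 was highest on T cells at 2 h, at 3.38 per 100, and on Ly6c2 cells at 3 d, at 5.52 per 100. LTBR, the lymphotoxin receptor, was highest on B cells, at 8.48 per 100 at 3 d. It had 4.45 per 100 T cells, 4.47 per 100 C1qa cells and 0.162 per 100 neutrophils. Ltbr RNA was highest in Ace cells, at 61.05 CPM at 3 d, where the antibody had 2 counts on 536 cells.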

How the data were processed

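The authors deposited filtered Cell Ranger 6.0.0 matrices of raw counts, per the file headers, with genes (mm10 per the labels) and antibody features side by side; the antibody reagents and the kit of each library (5′ or 3′) are not given clearly in the sources used here. The cells retained had more than 200 but fewer than 6000 genes, less than 10% of UMIs from mitochondria and fewer than 25000 UMIs. A marker counted as present at 0.03% of a cell's gene UMIs (1% for S100a8), and cells with exactly 1 marker entered a group. Doublets were called with Scrublet (scanpy 1.11.5) and kept unless stated. Antibody counts were summed per group and library and set against the highest isotype control (2-fold) or between libraries (share of antibody counts, 50 counts or more). Intervals are exact Poisson, binomial or conditional binomial from scipy 1.17.1 and cover counting error only; no test was run, since each condition is 1 library. Gene positions are from GENCODE vM21. The calculations were tested on simulated Poisson counts. That test did not cover antibodies whose counts lay in few cells. Named antibodies were the isotype controls, the lists, the 5 highest per group relative to the isotype, the 3 largest changes and those beside the limit; others are marked as chosen later. The members and lists were chosen with earlier results of these data known. Some values are not reported here.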

Additional observations from a re-analysis of the deposited data

How the results depend on the processing

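No paired analysis was possible because each time had 1 library and no test was run. CD44, CD45R and LGALS3 remained the only members above the isotype control under every alternative but the median isotype control, which passed 14 members at 2 h (TNFRSF17, C5AR2, CD7 and THY1 in B cells, ERBB2 and NOTCH1 in T cells, and 5 others in NK cells alone, on 1 or 2 counts where that median was 0) and 6 at 3 d (TNFRSF17, C5AR2 and LTBR added). Wider marker lists gave 8 list antibodies highest in their own cells at 3 d and 2 neutrophil members past 2-fold. In B cells 3 passed without the 1% of cells with most antibody counts; with no minimum count, 94 of 122 passed in B cells and 64 of 103 in neutrophils. The fall of CD45R on T cells turned to log2 0.14 with wider lists and 0.12 per cell without called doublets, and that of CD44 on Ly6c2 cells to 0.013 per cell and 0.17 without called doublets as well; the last setting and a total without integrins were chosen after seeing the data. The log2 LGALS3 difference was 2.45 or more in every group and setting. The cause of these moves was not tested. For most members the counts alone cannot tell absence of the protein from failed binding. The CD45 antibody had 26 counts in the whole 2 h library, although its cells were sorted on CD45.1.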

Other observations

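Single cells held large shares of rare antibodies at 2 h. The B cell named above had 829 antibody counts, 3088 gene UMIs and 22 antibodies detected, against a median of 5 in B cells, and Scrublet did not call it a doublet. It held 55.4% of all TNFRSF17 counts of the library, 41.1% of CD7, 49.6% of THY1 and 42.3% of CD45, with 107 CD45R counts. Apart from this cell, 1 T cell held 57 ERBB2 counts, where the next cell had 2. No cell of the 3 d library held 20 or more counts of a member other than CD44, CD45R, LGALS3 and the isotype controls.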
